A study of Mus musculus with 6 samples.

Results

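Claudins are the membrane proteins that form the strands of the tight junction, and 10 of them that mark segments of the kidney tubule or its vessels are described here: Cldn1, Cldn2, Cldn3, Cldn4, Cldn5, Cldn7, Cldn8, Cldn10, Cldn16 and Cldn19. They were taken by gene symbol from a table of 23669 gene rows, in which all 10 were found. The table holds 34 claudin rows, of which 24 have values. RNA-seq was run on mouse kidney taken on postnatal day 3. The series has 3 wild type samples and 3 with the genotype R26NICD2/+Kspcre, shortened to NICD2. NICD2 mice carry 1 copy of an allele at the Rosa26 locus for the intracellular domain of Notch2, the part of the receptor that enters the nucleus when Notch is activated. Kspcre is a Cre recombinase under the Ksp-cadherin (Cdh16) promoter, and so acts in tubule epithelium. The label of the wild type samples names neither the allele nor the Cre. Nothing in the labels says that each sample is a different animal, so the spread behind the p-values may be partly technical.

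The claudin that a tubule cell makes decides which ions pass between it and its neighbour. Cldn2 forms pores for cations and water in the leaky proximal tubule, and Cldn10 forms pores for anions or cations in the proximal tubule and the thick ascending limb according to its splice form. Cldn16 and Cldn19 act together in the thick ascending limb, where loss of either causes urinary wasting of magnesium and calcium. Cldn3, Cldn4, Cldn7 and Cldn8 belong to the tighter distal nephron and collecting duct, where Cldn4 and Cldn8 are known for their part in chloride passage. Cldn1 is made by the parietal epithelium of Bowman's capsule, and Cldn5 is the claudin of endothelium.

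Levels are FPKM, fragments scaled to transcript length and library size, which can be compared between genes because they are per length. A fold change is the NICD2 mean of log2(FPKM + 1) less that of wild type, ± SE, with a 95% interval. A gene was called when its limma p-value, adjusted over all 13765 genes tested, was under 0.05. A row of the table named for human Notch2, taken here as the transgene, held 0, 0.03 and 0.03 FPKM in wild type and 75.4, 79.6 and 60.2 FPKM in NICD2, so the libraries match their labels. The libraries were of like depth, estimated at 16250000 to 17500000 fragments. Some adrenal tissue came with the kidneys, in unequal amounts between libraries. The summed level of 10 adrenal markers was 206, 210 and 6.33 FPKM in wild type replicates 1 to 3 and 2.54, 199 and 198 FPKM in NICD2 replicates 1 to 3. In NICD2 replicate 1 the adrenal genes Cyp11b1, Cyp21a1, Th, Dbh and Pnmt were listed at 0. The summed level of 8 urothelial markers was highest within wild type in replicate 1, at 102 FPKM against 48.9 and 53 FPKM, and within NICD2 in replicate 1, at 69.7 FPKM against 40 and 44.8 FPKM. In NICD2 most of this sum came from 1 marker, and some other markers were lowest of NICD2 in replicate 1. Of the 7 urothelial markers tested, 1 was called higher and 3 lower. The part of either tissue in the claudin values was not tested. Fits were repeated without each single library and without the 2 libraries poor in adrenal RNA. No fit left out both libraries highest in the urothelial sum.

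Of the 10 claudins, Cldn3 rose in NICD2 kidneys and none fell, while 8.79% of all genes tested were called, 4.93% higher and 3.86% lower. The 9 others were not called. The median fold change of the 10 was 0.069, with 6 values above 0 and 4 below, beside a median of -0.0063 over all genes tested. An unadjusted p under 0.05 was reached by 4 of the 10 and by 25.1% of all genes. The groups did not overlap for 2 of the 10, Cldn3 (higher) and Cldn5 (lower), and for 30.5% of all genes, 15% higher and 15.5% lower. In whole kidneys, fewer cells of a type and less RNA per cell cannot be told apart. DEGseq q-values in the authors' deposited table were under 0.05 for 9 of the 10, 6 higher and 3 lower, as they were for 48.9% of 18725 genes. Cldn19 was the exception in the authors' deposited table (q = 0.386).

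**Figure D1:**
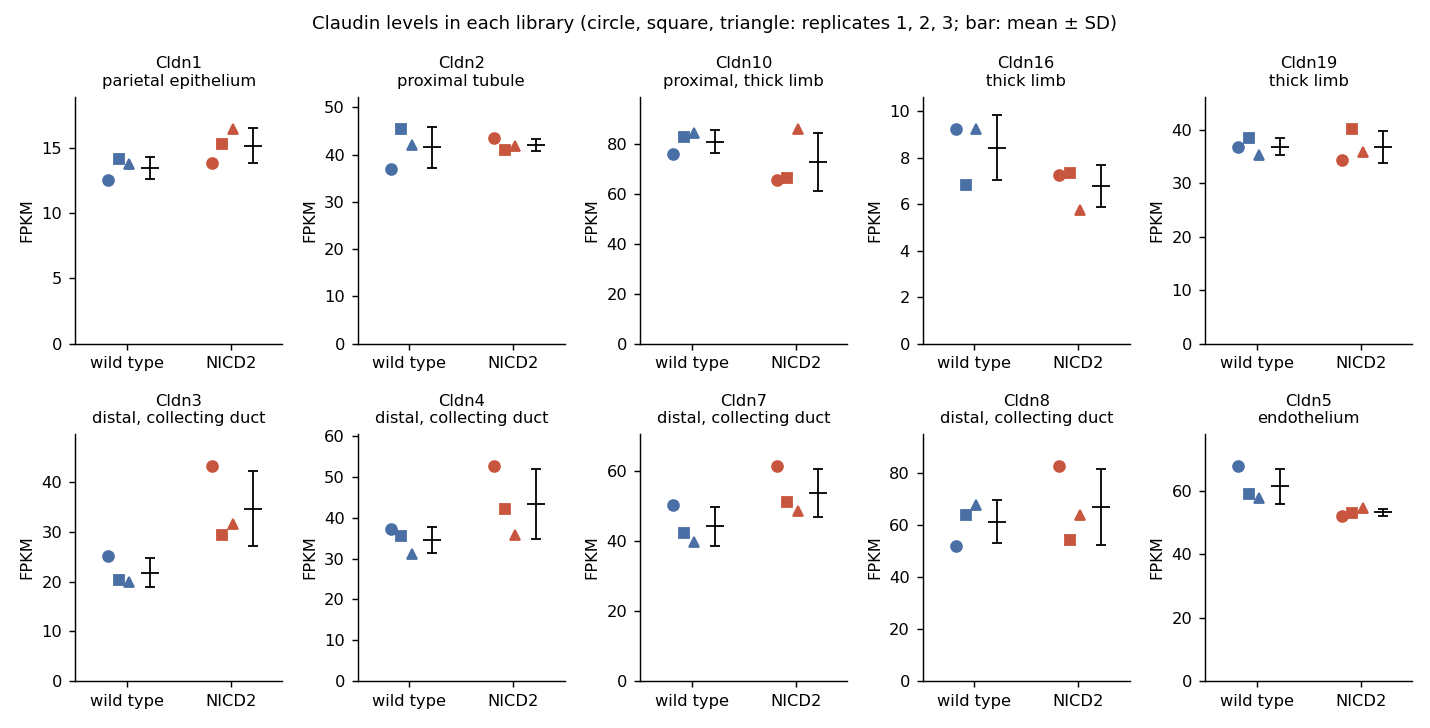
Level of each claudin in FPKM (vertical axes, each from 0) in the 3 wild type and 3 NICD2 libraries, with circles, squares and triangles for replicates 1, 2 and 3 and a bar for the mean ± SD. The NICD2 points lie above all wild type points for Cldn3 and below them for Cldn5, and the circle of NICD2 replicate 1 is the highest point for Cldn3, Cldn4, Cldn7 and Cldn8.

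Cldn3, which seals the junction against ions, lies on chromosome 5 (134986214 to 134987476 on GRCm38, plus strand), 39279 bases from its neighbour Cldn4 (134945123 to 134946934, minus strand). Both have 1 transcript as long as the gene (1263 and 1812 bases), so neither has an intron. The 250 bases before each start are printed because Cldn3 was the claudin that was called and Cldn4 is the closest other distal claudin on the chromosome. They come from RefSeq on GRCm38.p6, chr5:134985964-134986213 for Cldn3 and chr5:134946935-134947184 for Cldn4, each read 5′ to 3′ on the strand of its gene, with a match to the GC box motif in capitals.
Cldn3: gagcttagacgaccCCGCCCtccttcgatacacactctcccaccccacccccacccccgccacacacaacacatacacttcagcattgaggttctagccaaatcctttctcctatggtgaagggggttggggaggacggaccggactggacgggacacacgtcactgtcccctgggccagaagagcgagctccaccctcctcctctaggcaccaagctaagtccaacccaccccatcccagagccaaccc
Cldn4: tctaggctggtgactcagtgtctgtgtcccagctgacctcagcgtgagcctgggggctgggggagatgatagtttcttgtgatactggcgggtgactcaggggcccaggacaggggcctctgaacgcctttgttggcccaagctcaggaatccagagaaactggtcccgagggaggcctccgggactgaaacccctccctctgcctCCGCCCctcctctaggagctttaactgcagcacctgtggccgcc
The GC box was searched as GGGCGG on both strands, and its match lies 236 to 231 bases before the start in Cldn3 and 44 to 39 bases before it in Cldn4. It is found in 32.7% of 32851 promoter windows of this length. Neither window holds TGGGAA, the core bound by the Notch partner Rbpj (21.6% of windows on either strand), CACGTG, an E-box of the kind that Hes and Hey proteins can bind (6.02%), or AACCGGTT, the motif of Grainyhead factors (0.116%). Of the 10 claudins, 9 had a RefSeq window, 12 windows in all because Cldn7, Cldn10 and Cldn19 have more than 1 start. TGGGAA was present in 2 of the 12, 1 of Cldn7 and 1 of Cldn10, and the GC box in 8. These matches are descriptions of letters and not of binding.

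All levels are of whole kidney, and a segment is named only for where a claudin is known to be made. Among the claudins of the distal nephron and collecting duct, Cldn3 stood at 25.2, 20.3 and 19.9 FPKM in wild type and rose to 43.2, 29.3 and 31.6 FPKM in NICD2. Every NICD2 library was above every wild type library, and NICD2 replicate 1 was the highest. The means were 21.8 ± 2.96 and 34.7 ± 7.48 FPKM (SD, n = 3 per group), a rise of 59.2% (log2 fold change 0.63 ± 0.15, interval 0.30 to 0.97, limma adjusted p = 0.0321). A fold change of at least this size in either direction was found for 3.59% of the genes tested. The call was lost without wild type replicate 2 (adjusted p = 0.117) or replicate 3 (adjusted p = 0.0994), and without the 2 libraries poor in adrenal RNA, where the fold change was 0.41 (adjusted p = 0.123). Without NICD2 replicate 1 alone it was 0.47 (adjusted p = 0.0491).

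Cldn4, a partner of Cldn8 in the chloride pathway and a target of the transcription factor Grhl2, was at 37.3, 35.5 and 31.1 FPKM in wild type and at 52.7, 42.1 and 35.8 FPKM in NICD2. The groups overlapped, since NICD2 replicate 3 lay below wild type replicate 1. The fold change of Cldn4 was 0.31 ± 0.13 (interval 0.0061 to 0.61, adjusted p = 0.192). Cldn7, found along the lateral membrane as well as at the junction, was at 50.2, 42.2 and 39.7 FPKM in wild type and at 61.2, 51.1 and 48.4 FPKM in NICD2. Here too NICD2 replicate 3 lay below wild type replicate 1 (fold change 0.28 ± 0.11, interval 0.02 to 0.53, adjusted p = 0.163). The unadjusted intervals of Cldn4 and Cldn7 thus lay above 0, and neither passed the test over all genes. Without NICD2 replicate 1 the fold change was 0.16 for Cldn4 (adjusted p = 0.464) and 0.18 for Cldn7 (adjusted p = 0.424), and with only the libraries that hold adrenal RNA it was 0.090 and 0.11.

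Cldn8 was the most abundant of the 4 distal claudins, at 51.9, 63.9 and 67.9 FPKM in wild type and 82.7, 54.3 and 64 FPKM in NICD2. NICD2 replicate 1 was the highest library and wild type replicate 1 the lowest, and the rest overlapped (fold change 0.11 ± 0.15, interval -0.23 to 0.46, adjusted p = 0.695). Without NICD2 replicate 1 the fold change of Cldn8 was -0.047. All 4 distal claudins were highest in NICD2 replicate 1, where they stood 1.23 to 1.42 times above the mean of the other NICD2 libraries. In wild type, replicate 1 was the highest for Cldn3, Cldn4 and Cldn7 (1.12 to 1.25 times the mean of the other libraries) and the lowest for Cldn8 (0.788 times). These are also the libraries with the highest summed urothelial marker level in their groups, a sum that in NICD2 rested mostly on 1 marker. The part of urothelial RNA in these values was not tested. Summed over the 4 genes, distal claudins made up 30.4% ± 0.259 of all claudin FPKM in wild type and 36.9% ± 4.48 in NICD2 (SD, n = 3 per group), with ranges of 30.1% to 30.6% and 34% to 42%. The ratio of Cldn4 to Cldn3 levels was 1.48 to 1.75 in the wild type libraries and 1.13 to 1.44 in the NICD2 libraries, and the ratio of Cldn8 to Cldn3 was 2.06 to 3.42 and 1.85 to 2.03. Both have the called gene Cldn3 as denominator, and neither overlapped between the groups. The ratios without Cldn3 did overlap, at 1.39 to 2.18 and 1.29 to 1.79 for Cldn8 to Cldn4 and at 1.19 to 1.35 and 1.16 to 1.35 for Cldn7 to Cldn4. The share of the distal claudins includes Cldn3. Neither this share nor any of the ratios was tested.

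The markers of principal cells, which take up sodium and water in the collecting duct, were set beside these claudins as RNA levels of whole kidney. Of 10 markers, 5 were called lower, 4 were not called and 1 was called higher, the sodium channel subunit Scnn1g (named after its values were seen). The median fold change of the 10 was -0.60, and their summed level was 449 to 470 FPKM in wild type and 257 to 306 FPKM in NICD2. Aqp2, the water channel regulated by vasopressin, had the largest fall of the list, at 139, 136 and 131 FPKM and at 51.6, 37.4 and 40.4 FPKM (fold change -1.64 ± 0.11, adjusted p = 5.81e-05). Of 10 markers of intercalated cells, the acid-base cells of the same duct, 9 were called lower and none higher, and their summed level was 222 to 238 FPKM and 73.3 to 81.8 FPKM. No marker of either list was at 0 in any library. Of 8 markers of the distal convoluted and connecting tubule, 1 was called higher, 3 were called lower and 4 were not called. Their median fold change was -0.068. The distal claudins were not set against the mean of these markers.

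Set against the mean log2 level of the principal cell markers in the same library, each distal claudin had a higher value in NICD2, as did most genes. Cldn3 lay below the marker mean in wild type (-0.42, -0.68 and -0.68) and above it in NICD2 (0.84, 0.52 and 0.58). The difference between the groups was 1.24 for Cldn3, 0.91 for Cldn4, 0.88 for Cldn7 and 0.72 for Cldn8, with no overlap between groups in the 4 cases. The marker mean itself differed by -0.60, and 90.4% of all genes tested had NICD2 values wholly above wild type on this measure. The lack of overlap is therefore no result about the 4 claudins. With 3 libraries a group the exact two-sided permutation test cannot go below p = 0.1, the value that each of the 4 reached (adjusted p = 0.22 over 11 such ratios).

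**Figure D2:**
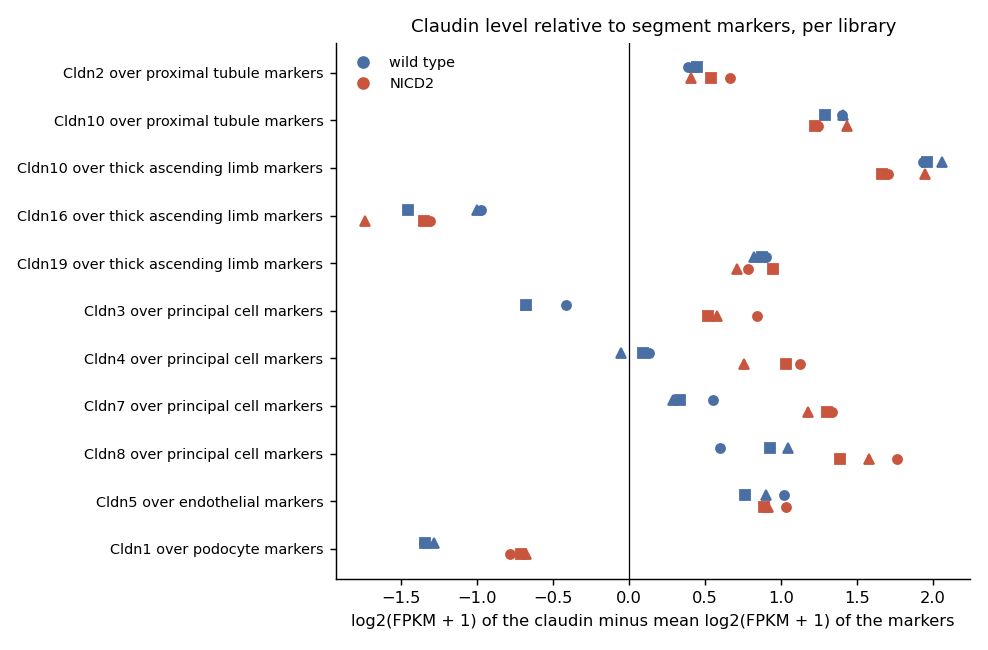
Level of each claudin minus the mean level of the markers of its segment, both as log2(FPKM + 1) (horizontal axis), for each wild type library (blue) and NICD2 library (red), with circles, squares and triangles for replicates 1, 2 and 3. The groups lie apart for Cldn3, Cldn4, Cldn7 and Cldn8 over principal cell markers and for Cldn1 over podocyte markers, and overlap in the other 6 rows; on these 2 measures 90.4% and 79.9% of all genes also lie apart and higher in NICD2.

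Neither thick ascending limb claudin of the magnesium and calcium pathway was called. Cldn19 was at 36.7, 38.5 and 35.3 FPKM in wild type and 34.3, 40.1 and 35.8 FPKM in NICD2, so the wild type range lay inside that of NICD2. Its fold change was -0.0045 ± 0.07 on the log2 scale, with an interval of -0.17 to 0.16 (adjusted p = 0.979). Cldn16 was at 9.24, 6.83 and 9.24 FPKM and at 7.25, 7.35 and 5.75 FPKM. Wild type replicate 2 lay among the NICD2 libraries, and the fold change of Cldn16 was -0.27 ± 0.13 (interval -0.57 to 0.02, adjusted p = 0.232). Cldn16 was the lowest of the 10 claudins and rested on about 103 to 167 fragments a library, which gives a counting error near 8.59% beside a spread of 16.5% between the wild type libraries. Cldn19 was 3.82 to 5.63 times as high as Cldn16 in wild type and 4.73 to 6.23 times in NICD2. Cldn16 lies 91295 bases from Cldn1 on chromosome 16, and the fold change of Cldn1 had the opposite sign.

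Cldn10, the highest of the 10 in wild type, was at 75.9, 82.6 and 84.4 FPKM in wild type and at 65.5, 66.5 and 86.1 FPKM in NICD2. NICD2 replicate 3 was the highest library of all and the other 2 NICD2 libraries were the lowest (fold change -0.16 ± 0.11, interval -0.41 to 0.08, adjusted p = 0.386). The fold change of Cldn10 was -0.095 without NICD2 replicate 1, -0.11 without NICD2 replicate 2 and -0.29 without NICD2 replicate 3 (adjusted p = 0.0642), and was not called in any of these fits. The table gives 1 value for the 6 transcripts of Cldn10, so the proximal and thick limb forms cannot be told apart. Of 12 thick limb markers, 3 were called higher and 2 lower with a median of -0.046. Umod, the urinary protein uromodulin, was at 112, 121 and 110 FPKM and at 300.1, 344 and 366 FPKM (fold change 1.55 ± 0.08, adjusted p = 2.2e-05). Set against the mean of these markers, the difference between the groups was -0.052 for Cldn19, -0.32 for Cldn16 and -0.21 for Cldn10, with groups that overlapped (exact permutation p = 0.6, 0.3 and 0.2).

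The proximal tubule claudin Cldn2 was at 37, 45.5 and 42.1 FPKM in wild type and at 43.5, 41 and 41.8 FPKM in NICD2. The NICD2 range lay inside that of wild type (fold change 0.023 ± 0.08, interval -0.16 to 0.21, adjusted p = 0.894). Cldn2 is on the X chromosome. NICD2 replicate 3, the library with the Y-linked gene Ddx3y listed at 0 (17.3 to 21.8 FPKM in the others, named after its values were seen), lay between the other NICD2 libraries for Cldn2. The Y-linked genes Uty, Kdm5d and Eif2s3y were also at 0 in that library and present in all others. Y-linked RNA was thus not balanced between the groups. Its part in the comparison was not tested, beyond the fit without that library. Of 12 proximal markers, 3 were called lower, 1 was called higher and 8 were not called, with a median of -0.15. Their summed level was 725 to 787 FPKM in wild type and 544 to 615 FPKM in NICD2, and most of that fall came from 1 marker, Slc34a1. Slc34a1, which reabsorbs phosphate, was at 378, 392 and 365 FPKM in wild type and 216, 282 and 238 FPKM in NICD2 (fold change -0.63 ± 0.10, adjusted p = 0.00579). Slc4a4, the marker called higher, had the smallest p of the list. It was at 11.5, 16.7 and 15.8 FPKM in wild type and 24.9, 26.6 and 29.4 FPKM in NICD2 (fold change 0.85 ± 0.13, limma adjusted p = 0.00528). Over the mean of these markers, Cldn2 differed by 0.12 and Cldn10 by -0.068 between the groups (exact permutation p = 0.3 and 0.4).

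Among the claudins of the glomerulus and vessels, Cldn1 was at 12.6, 14.2 and 13.8 FPKM in wild type and at 13.8, 15.3 and 16.5 FPKM in NICD2. The groups overlapped (fold change 0.16 ± 0.08, interval -0.03 to 0.35, adjusted p = 0.268). The 8 podocyte markers, from the cells on the other side of Bowman's space, were called lower in 6 cases and higher in none, with a median of -0.48. The podocyte transcription factor Wt1 was at 78.7 ± 6.28 and 55.4 ± 2.77 FPKM (SD, n = 3, adjusted p = 0.00473). Over the mean of the podocyte markers, Cldn1 was 0.60 higher in NICD2 with no overlap, while the markers themselves differed by -0.44 (exact permutation p = 0.1, adjusted p = 0.22). On this measure 79.9% of all genes lay wholly higher in NICD2, so nothing is read from it about Cldn1.

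Cldn5 was at 67.9, 58.9 and 57.7 FPKM in wild type and at 52.2, 52.9 and 54.6 FPKM in NICD2. Every NICD2 library lay below every wild type library, and the difference was not called (fold change -0.20 ± 0.07, interval -0.37 to -0.03, adjusted p = 0.129). For comparison, 15.5% of all genes had NICD2 libraries wholly below wild type. The 10 endothelial markers had negative fold changes throughout, 4 of them called, with a median of -0.24. Among them Emcn, an endothelial sialomucin, was at 93.1 ± 4.98 and 68.35 ± 2.66 FPKM (SD, n = 3, adjusted p = 0.00437). Cldn5 over the mean of the endothelial markers differed by 0.050 between the groups, which overlapped (exact permutation p = 0.5).

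On GRCm38, Cldn1 (26356645 to 26371839), Cldn16 (26463135 to 26482765), Cldn5 (18776847 to 18778262) and Cldn8 (88560826 to 88563183) lie on chromosome 16. Cldn10 lies on chromosome 14 (118787871 to 118874525), Cldn19 on chromosome 4 (119255441 to 119262438), Cldn7 on chromosome 11 (69964779 to 69967886) and Cldn2 on chromosome X (139800808 to 139811386). The values are for whole genes.

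The order of the claudins in wild type kidneys, by mean FPKM, was Cldn10, Cldn5, Cldn8, Cldn7, Cldn2, Cldn19, Cldn4, Cldn3, Cldn1 and Cldn16. The ranges of neighbours overlapped for Cldn5 and Cldn8, Cldn7 and Cldn2, Cldn2 and Cldn19, and Cldn19 and Cldn4, and were apart for the other neighbours. Together the 10 held 404 ± 3.67 FPKM in wild type and 426 ± 28.6 FPKM in NICD2 (SD, n = 3 per group), and 76% ± 0.745 and 79.2% ± 0.967 of all claudin FPKM. The share ranged from 75.1% to 76.6% in wild type and from 78.1% to 80% in NICD2. The summed level of the 10 overlapped between the groups, at 401 to 408 FPKM in wild type and 400 to 456 FPKM in NICD2. That of the other claudins listed was 125 to 134 FPKM in wild type and 108 to 114 FPKM in NICD2. The share was not tested.

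**Figure D3:**
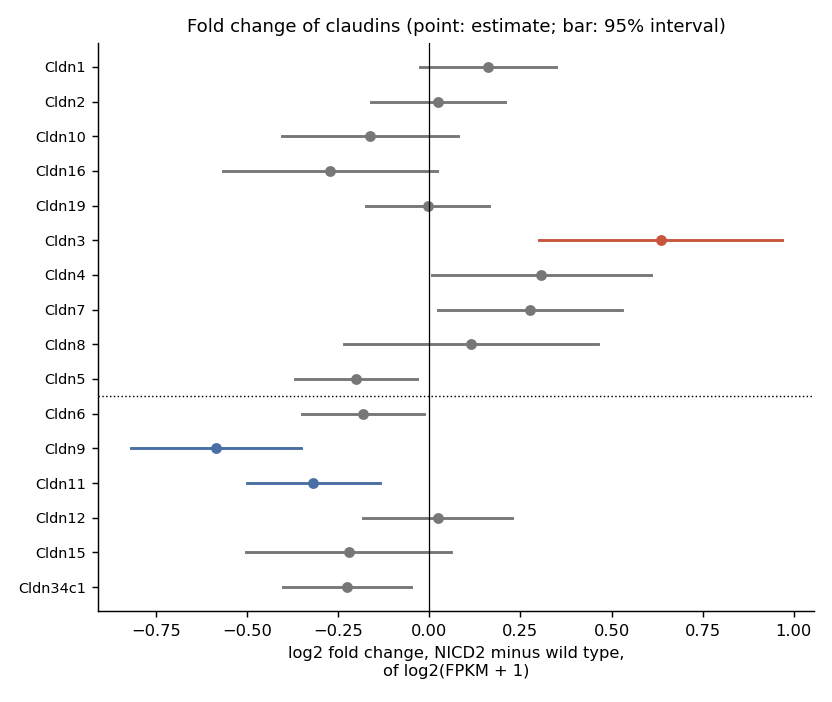
Fold change of each claudin on the log2(FPKM + 1) scale, NICD2 minus wild type (horizontal axis), with its 95% interval as a bar, for the 10 segment claudins above the dotted line and the 6 other tested claudins below it. Cldn3 was called higher (red), Cldn9 and Cldn11 were called lower (blue), and the grey genes were not called.

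Besides the 10, 6 further claudins had enough signal to be tested, 2 of which fell and none of which rose, where 3.86% of all genes were called lower and 4.93% higher. Cldn9, known with Cldn6 as a claudin of the newborn kidney, was at 7.49, 5.57 and 6.4 FPKM in wild type and at 3.96, 4.07 and 3.85 FPKM in NICD2, with no overlap (fold change -0.59 ± 0.10, interval -0.82 to -0.35, adjusted p = 0.00972). It kept its call without any 1 library, and had adjusted p = 0.0681 without the 2 libraries poor in adrenal RNA. Cldn6, which ends 137 bases from the end of Cldn9 on chromosome 17, was as abundant as the highest segment claudins, at 73.5, 66.4 and 67.7 FPKM and at 63.6, 63.3 and 55.8 FPKM. Its groups did not overlap and it was not called (fold change -0.18 ± 0.07, adjusted p = 0.166). Cldn11, the claudin of myelin and of the testis barrier, was at 21, 21.4 and 18.2 FPKM and at 15.2, 15.7 and 17 FPKM (fold change -0.32 ± 0.08, adjusted p = 0.0436). Cldn11 was no longer called when any 1 library except wild type replicate 3 was left out (adjusted p from 0.0529 to 0.155).

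Cldn12, Cldn15 and Cldn34c1 were not called, with fold changes of 0.022 ± 0.09, -0.22 ± 0.12 and -0.23 ± 0.08 and adjusted p = 0.911, 0.308 and 0.111. The remaining claudins of the list for the family lay below the filter of 1 FPKM in 3 libraries or had no value. One of them, Cldn14, is named after its values were seen, because it closes the Cldn16 and Cldn19 pathway and answers to the calcium-sensing receptor. It was listed at 0.11, 0.1 and 0.05 FPKM in wild type and at 0.46, 0.21 and 0.41 FPKM in NICD2, and was too low to be tested.

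Claudins work within a larger junction, and 30 of its other proteins were tested. Of these, Cgn and Lsr rose and Magi2 fell, with a median fold change of 0.055 over the 30 and 27 not called. The share called was near the 8.79% of all genes. Cgn, the cytoplasmic adaptor cingulin, was at 9.3, 9.48 and 9.23 FPKM in wild type and 17.9, 16.1 and 15.9 FPKM in NICD2 (fold change 0.77 ± 0.07, adjusted p = 0.000312), and was called under every alternative. Lsr, a protein of the corners where 3 cells meet, was at 25.5, 22.9 and 23.1 FPKM and at 32.5, 33.1 and 28.1 FPKM (fold change 0.37 ± 0.08, adjusted p = 0.0251). Lsr was no longer called when replicate 2 or 3 of wild type, or replicate 1 or 2 of NICD2, was left out (adjusted p up to 0.0984). Magi2, a scaffold that podocytes also use, was at 5.76, 6.19 and 5.68 FPKM in wild type and 3.38, 4.23 and 4.45 FPKM in NICD2 (fold change -0.46 ± 0.10, adjusted p = 0.0251). Its call depended on every library except NICD2 replicate 3 (adjusted p up to 0.102).

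Of 20 genes chosen as regulators of claudins, 5 rose and 3 fell, with a median of 0.12, where 8.79% of all genes were called. Stk39, a kinase of the salt-transport pathway, was at 17.3 ± 0.465 and 28.2 ± 1.83 FPKM (SD, n = 3, adjusted p = 0.000572). Grhl2, an activator of Cldn4, was at 5.5, 6.2 and 5.95 FPKM in wild type and 8.37, 6.96 and 7.88 FPKM in NICD2 (fold change 0.34 ± 0.09, adjusted p = 0.0447). The epithelial factor Elf3 (fold change 0.52 ± 0.13) and the membrane protease St14 (0.30 ± 0.07) also passed the test (adjusted p = 0.0448 and 0.0294). Among those that fell, Casr, the calcium-sensing receptor of the thick limb, was at 7.11, 8.66 and 7.7 FPKM and at 3.69, 3.83 and 4.78 FPKM (fold change -0.79 ± 0.11, adjusted p = 0.00277). Klhl3, a ubiquitin ligase adaptor reported to act on Cldn8, was at 7.28, 8.22 and 8.33 FPKM in wild type and 5.21, 5.29 and 5.77 FPKM in NICD2 (fold change -0.48 ± 0.08, adjusted p = 0.00847). The epithelial repressor Ovol1 was called at a fold change of -0.35 ± 0.09 (adjusted p = 0.0473).

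Stk39 and Casr kept their calls under every alternative, and Klhl3 lost it without the libraries poor in adrenal RNA (adjusted p = 0.0837). The calls of Grhl2, Ovol1, Elf3 and St14 were less stable. Grhl2 lost its call without any 1 library except NICD2 replicate 2 (adjusted p up to 0.144), Ovol1 without any 1 library (up to 0.164), Elf3 without any except NICD2 replicate 3 (up to 0.142), and St14 without any except wild type replicate 1 and NICD2 replicate 3 (up to 0.107).

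**Figure D4:**
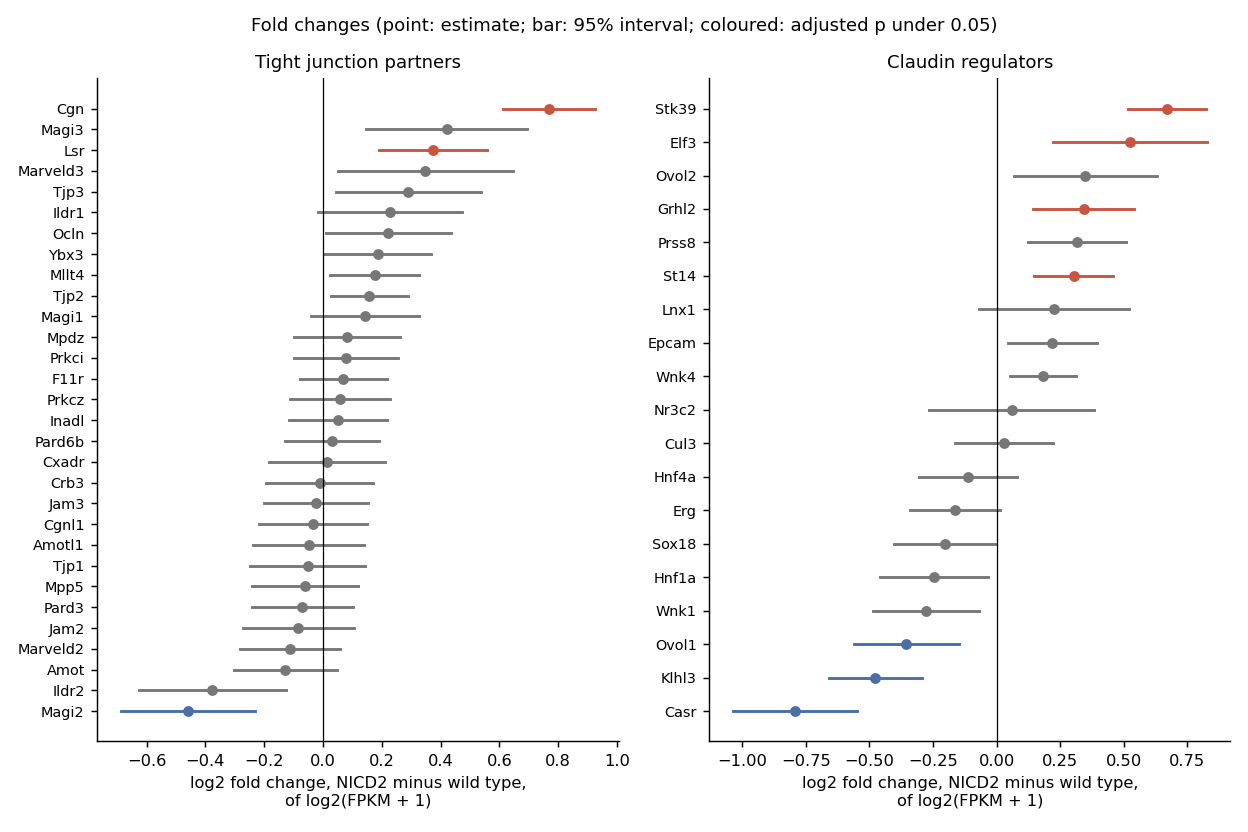
Fold changes on the log2(FPKM + 1) scale, NICD2 minus wild type (horizontal axes), with 95% intervals as bars, for 30 proteins of the tight junction (left) and for regulators of claudins (right), in order of fold change. Cgn and Stk39 have the largest rises shown, at 0.77 and 0.67, and Magi2 and Casr the largest falls, at -0.46 and -0.79.

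The genes whose profile over the 6 libraries was nearest to that of Cldn3, by the root mean square difference of log2(FPKM + 1) after subtraction of each gene's wild type mean, were Bcl2l14 (0.0481) and Mycl (0.0796). Bcl2l14 was at 3.2, 2.64 and 2.52 FPKM in wild type and 6.03, 3.84 and 4.3 FPKM in NICD2, and Mycl, a member of the Myc family, at 4.21, 3.18 and 3.13 FPKM and 7.7, 5.79 and 5.75 FPKM. They were picked for this likeness, so their shared pattern is a description.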

How the data were processed

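RNA was taken with Trizol from frozen kidneys and sequenced from Illumina TruSeq libraries, per the labels' protocols. The deposited table gives FPKM per sample, computed by the authors, per the file headers. Bowtie 0.12.2 and mm8 are listed, per the submitters' processing notes, while the positions of the 10 claudins in the table match RefSeq on GRCm38, apart from Cldn5 and Cldn7, which the table places on contigs outside the chromosomes. The program behind the FPKM, and how it treated strand and shared reads, were not given in the sources used here. The table also holds the authors' log2 fold changes and DEGseq q-values, per the file headers, and 27 columns on pairs of samples that were not used.

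Rows without FPKM (4010) were dropped. The 13765 genes reaching 1 FPKM in 3 or more of 6 libraries were compared on log2(FPKM + 1) with limma 3.58.1 (R 4.3.3; variance trend, two-sided, Benjamini-Hochberg over all genes tested, threshold 0.05), which was tested on simulated data. Claudins over segment markers were compared with exact permutation tests. Depth was estimated from the steps of low FPKM values. For each library, the library size and the bases taken off transcript length (120 to 140) were those with most values near a whole fragment. At these settings 73.2% to 77.1% fell within 0.15 of a whole fragment. Chance gives 30.0% for a setting fixed in advance, which is no baseline for the best of many settings. Counting errors cover counting only. The members, gene lists and tests were chosen with earlier results of these data known. Genes named are the members, tested claudins, called genes of the junction and regulator lists, up to 3 markers per list by smallest p, and the 2 profiles nearest to each called member whose mean is at least 2 FPKM. Alternatives were a pseudocount of 0.1, no filter, a filter of 5 FPKM, median-ratio and upper-quartile scaling, no variance trend, the replicate number as a block, each library left out and, added after seeing the data, only the 4 libraries that hold adrenal RNA. Values of 3 genes of the marker and regulator lists are not reported here, though list counts include them. Other steps ran in Python 3.11.15 (scipy 1.17.1, pandas 2.3.3).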

Additional observations from a re-analysis of the deposited data

How the results depend on the processing

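Over 10 claudins and 14 alternatives, 129 of 140 fold changes kept their sign and their side of the threshold. Cldn3 lost its call 4 times, without a filter (adjusted p = 0.0797), without wild type replicate 2 or 3, and in the libraries that hold adrenal RNA. Its fold change stayed between 0.41 and 0.74. Signs turned for values near 0: over the fits without 1 library, Cldn2 ranged from -0.0555 to 0.0897, Cldn19 from -0.0681 to 0.0429, Cldn8 from -0.0467 to 0.25, Cldn12 from -0.0474 to 0.10 and mouse Notch2 from -0.0469 to 0.0635, Cldn19 over thick limb markers from -0.12 to 0.00100 and Cldn5 over endothelial markers from -0.0159 to 0.11. Cldn19 was at 0.0136 with adrenal RNA only.

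Without 1 library, 624 to 985 genes were called (388 to 589 higher, 236 to 411 lower), against 1210 (679 and 531) in all 6. The counts were 0 to 1 for claudin members higher, 1 to 2 for other claudins lower, 1 to 2 and 0 to 1 for junction partners higher and lower, and 2 to 4 for regulators higher. With adrenal RNA only, 555 genes were called (348 higher, 207 lower), with 0 claudin members higher, 0 other claudins lower, 1 junction partner higher, 0 lower, 2 regulators higher and 1 lower. With no filter on low values these were 0 claudin members higher, 1 other claudin lower, 0 junction partners lower and 3 regulators higher. Without the variance trend 1 other claudin was lower. The cause was not tested.

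The replicate numbers share only a number: deviations of same-numbered libraries correlated at -0.03, 0.06 and -0.05 across genes, and 0 of 6 libraries correlated best with their own number. With the replicate block 2 claudin members were higher, Cldn3 and Cldn7 (adjusted p = 0.0421), and 1 other claudin was lower. Scaling moved the median of all genes by at most 0.0165. Depth limits Cldn16 most.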
